A study of Mus musculus with 23 samples.

Results

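The club cell secretory genes described here are 10 genes taken by symbol from both deposited tables of normalized counts: the secretoglobins *Scgb1a1*, *Scgb3a1* and *Scgb3a2*, the secreted airway proteins *Bpifa1*, *Bpifb1* and *Muc5b*, and the detoxifying enzymes *Cyp2f2*, *Aldh1a1*, *Gsto1* and *Cbr2*. All 10 were found in each table, out of 35455 genes in the first and 35454 in the second. RNA was sequenced in 23 libraries of tdTomato+ tumor cells sorted from mouse lungs. The mice were 3 to 4 months old and of mixed genetic background, and the virus Ad5-*Sftpc-CRE* switched on in them a *Braf CAT* allele that encodes BRAF V600E and tdTomato after CRE recombination. The first table holds 6 BRAF V600E libraries (genotype CAT/+; 1, 3 and 2 libraries at 2, 6 and 12 weeks p.i.) and 8 BRAF V600E/PI3Kα H1047R libraries (CAT/+; HR/+; 2, 4 and 2 libraries). The second holds 5 BRAF V600E/PGC1α Het libraries (CAT/+; PGC1a mutant/+) and 4 BRAF V600E/PGC1α Null libraries (CAT/+; PGC1a mutant/mutant), all at 12 weeks p.i. Every mouse carried the *Braf CAT* allele, and the Het mice had lost 1 of their *Ppargc1a* alleles in recombined cells, so no library of the second table had both copies of *Ppargc1a*. The *Sftpc* promoter limits recombination to cells that express surfactant protein C, and mice of the 12 week groups received a lower virus titer than those of 2 and 6 weeks, so that week and titer cannot be told apart.

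Club cells are secretory cells of the conducting airway epithelium. They release secretoglobins and antimicrobial or mucous proteins into the airway lining fluid, and they carry a set of enzymes that oxidize, reduce or conjugate inhaled chemicals. The tumor cells studied here were started in alveolar type 2 (AT2) cells, which make surfactant and in the healthy lung express little of the secretory products, although some of the enzymes are made by both cell types.

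The promoters of 4 of the genes are shown because they belong to genes that differed in the extent to which a single Null library set their values, described below, and because they differ in the short motifs they hold. Sequences are from RefSeq (GRCm38.p6), on the strand of the gene from 5′ to 3′, and run from 250 bases before to 50 bases after the annotated start. Capitals mark matches on either strand to CAAGTG (an NKX2-1 type core) or TNTTTAC (a forkhead type core). *Scgb3a1* lies at chr11:49663345-49663644 on the plus strand, *Bpifa1* at chr2:154142630-154142929 on the plus strand, the second annotated start of *Bpifb1* at chr2:154200130-154200429 on the plus strand, and *Cbr2* at chr11:120731972-120732271 on the minus strand.
Scgb3a1: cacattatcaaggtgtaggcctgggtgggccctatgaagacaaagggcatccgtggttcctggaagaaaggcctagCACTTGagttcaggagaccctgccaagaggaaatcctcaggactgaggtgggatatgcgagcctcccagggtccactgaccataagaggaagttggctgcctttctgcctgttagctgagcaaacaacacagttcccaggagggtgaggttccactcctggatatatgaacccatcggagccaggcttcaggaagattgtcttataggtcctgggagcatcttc
Bpifa1: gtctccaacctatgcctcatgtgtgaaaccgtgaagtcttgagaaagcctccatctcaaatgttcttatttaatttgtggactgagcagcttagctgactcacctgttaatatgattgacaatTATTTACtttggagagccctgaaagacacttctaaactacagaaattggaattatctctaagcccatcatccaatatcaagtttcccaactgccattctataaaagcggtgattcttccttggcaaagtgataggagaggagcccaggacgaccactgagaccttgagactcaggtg
Bpifb1, second start: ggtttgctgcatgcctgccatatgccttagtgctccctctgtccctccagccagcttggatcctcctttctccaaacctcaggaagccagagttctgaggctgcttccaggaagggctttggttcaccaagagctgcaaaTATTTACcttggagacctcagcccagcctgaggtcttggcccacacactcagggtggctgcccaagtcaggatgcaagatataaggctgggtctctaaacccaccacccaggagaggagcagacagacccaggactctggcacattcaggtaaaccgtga
Cbr2: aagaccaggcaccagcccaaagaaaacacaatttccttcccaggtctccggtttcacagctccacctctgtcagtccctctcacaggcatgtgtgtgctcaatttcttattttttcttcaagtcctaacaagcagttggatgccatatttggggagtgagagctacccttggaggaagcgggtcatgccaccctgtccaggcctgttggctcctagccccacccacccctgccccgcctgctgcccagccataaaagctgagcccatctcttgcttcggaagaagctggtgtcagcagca

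*Scgb3a1* held the NKX2-1 type letters at -174 from the start, and the BPI-fold neighbours on chromosome 2 each held TATTTAC, at -127 in *Bpifa1* and at -110 in the second start of *Bpifb1*. No match to either motif, nor to TTGCNNAA (a C/EBP type core), was found in the windows of *Cbr2*, *Gsto1* or the first annotated start of *Bpifb1*. Among 9 promoter entries, read for 7 of the 10 genes, 3 held CAAGTG, 3 held TNTTTAC and 1 held TTGCNNAA. *Scgb3a2*, on chromosome 18, was left out, and no entry was found for *Scgb1a1* or *Muc5b*. Over all 32851 promoters of the same length the shares were 13.6%, 12.4% and 10.8%, read on both strands. No match of one motif overlapped a match of another in these windows.

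The deposited values summed to between 7115753 and 9159567 per library in the PGC1α table and to between 16433820 and 20287296 in the PI3Kα table. All 10 genes passed a filter of a mean normalized count of at least 10 in both tables. *Scgb3a2* averaged 4.99 in the Het libraries and so passed in the PGC1α table through its Null values. The AT2 markers were present in every library, with 20 markers summing to between 479494 and 762133 in the PGC1α table and to between 96407 and 1738733 in the PI3Kα table. *Ppargc1a*, the targeted coactivator of mitochondrial genes, had normalized counts of 75.8, 170, 155, 200 and 561 in Het replicates 1 to 5 and of 72.7, 38.0, 51.6 and 124 in Null replicates 1 to 4. The groups overlapped, and its log2 fold change was -1.51 (SE 0.5; unadjusted p = 0.0105, adjusted p = 0.978, limma). The value is for the whole gene, since which exons the floxed allele loses is not given in the sources used here. The Y-linked *Kdm5d* went against the labelled sex in both BRAF V600E/PI3Kα H1047R libraries of 12 weeks, with normalized counts of 502 under the male label and 4728 under the female one, so differences that use the pair are also given without 1 or both of its libraries.

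At 12 weeks p.i. the secretoglobins were higher in PGC1α Null than in PGC1α Het tumor cells. *Scgb1a1*, which encodes the main secreted protein of club cells, had normalized counts of 252, 370, 438, 355 and 1363 in Het replicates 1 to 5 and of 2761, 12565, 2306 and 3526 in Null replicates 1 to 4. Every Null library lay above every Het library, with Null replicate 2 far above the other three Null libraries and Het replicate 5 above the other four Het libraries. The means were 556 ± 456 (SD, n = 5) and 5289 ± 4877 (SD, n = 4). On the log2(normalized count + 1) scale used for all fold changes, the difference was 3.16 (SE 0.52, 95% interval 2.03 to 4.3). The unadjusted limma p of 4.25e-05 was the 4th smallest of 17424 genes tested, but it did not pass after adjustment (adjusted p = 0.177), and the exact two-sided permutation p was 0.0159.

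*Scgb3a2*, a secretoglobin of the small airways, had normalized counts of 0, 4.66, 4.84, 2.72 and 12.7 in the Het libraries and of 84.2, 463, 28.8 and 80.9 in the Null libraries. *Scgb3a1*, another member of the family, found in upper airway secretory cells, gave 0, 15.1, 17.8, 20.1 and 0 in Het and 126, 1575, 42.5 and 33.8 in Null. For both genes the lowest Null library was above the highest Het library. *Scgb3a2*, with a Het mean of 4.99, passed the filter of 10 through its Null values. The log2 difference for *Scgb3a2* was 4.49 (SE 0.86, 95% interval 2.62 to 6.36; unadjusted p = 0.000177, adjusted p = 0.267, limma). For *Scgb3a1* it was 4.52 (SE 1.25, 95% interval 1.81 to 7.22; unadjusted p = 0.0032, adjusted p = 0.673, limma). Both had an exact two-sided permutation p of 0.00794, the smallest that 126 splits of 4 and 5 libraries can give.

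Of the 10 genes, these 3 secretoglobins were the ones with all Null libraries above all Het libraries. This pattern was shared by 164 of 17424 genes tested (0.941%), and the opposite one by 0.459%. No gene of the table, and so none of the 10, passed an adjusted p of 0.05 (0%). At an unadjusted p under 0.05, 6 of the 10 were higher in Null and none lower, where 2.66% of all genes tested were higher and 1.17% lower. The 6 were the 3 secretoglobins (*Scgb3a2* being tested through its Null values), *Bpifb1*, *Muc5b* and *Cbr2*. All 10 fold changes were above 0, with a median of 1.7, beside 51.1% above 0 and a median of 0.01 over all genes tested.

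**Figure D1:**
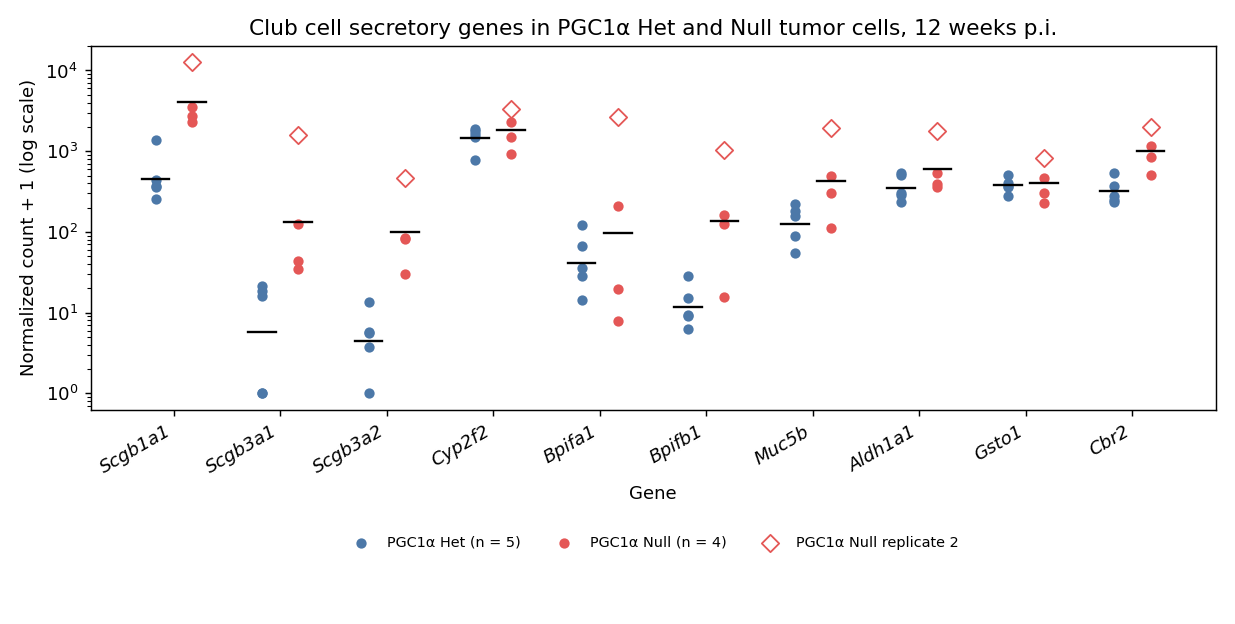
Normalized count + 1 of each of the 10 genes (x axis) in each library on a log y axis, for 5 PGC1α Het and 4 PGC1α Null libraries at 12 weeks p.i., with a bar at the mean of the log2 values and an open diamond for Null replicate 2. The diamond is the highest point for all 10 genes, and the Het and Null points are fully apart for *Scgb1a1*, *Scgb3a1* and *Scgb3a2*.

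Among the other secreted proteins, *Bpifb1* and *Muc5b* were higher in most Null libraries, and *Bpifa1* was high in Null replicates 1 and 2 alone. *Bpifb1*, a BPI-fold protein of airway mucus, had normalized counts of 8.03, 27.3, 5.21, 14.1 and 8.33 in Het and of 162, 1045, 124 and 14.7 in Null. Null replicates 1 to 3 lay above all Het libraries and Null replicate 4 fell within their range. The log2 difference was 3.52 (SE 0.93, 95% interval 1.52 to 5.52; unadjusted p = 0.00219, adjusted p = 0.618, limma), with an exact two-sided permutation p of 0.0159.

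*Muc5b*, a gel-forming mucin, had normalized counts of 87.8, 182, 155, 224 and 53.7 in Het and of 306, 1930, 112 and 489 in Null. Null replicate 3 was within the Het range and the other three Null libraries were above it. The log2 difference was 1.76 (SE 0.66, 95% interval 0.33 to 3.19; unadjusted p = 0.0196, adjusted p = 0.998, limma), and the exact two-sided permutation p was 0.0794. *Bpifa1*, an antimicrobial and surface-active protein of the upper airways, gave 120, 13.3, 65.3, 35.2 and 27.8 in Het and 211, 2683, 18.6 and 6.99 in Null. The groups overlapped, the lowest of all 9 libraries being Null replicate 4, and the log2 difference of 1.23 (SE 1.32, unadjusted p = 0.368, limma) was smaller than its error.

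Of the 4 enzymes, *Cbr2* was higher in Null and the others differed by less than the spread between libraries. *Cbr2*, a carbonyl reductase abundant in mouse lung, had normalized counts of 234, 279, 534, 246 and 370 in Het and of 1145, 1966, 513 and 847 in Null. All Null libraries were above the Het mean of 333, and Null replicate 3 lay just under the highest Het library. The log2 difference was 1.65 (SE 0.36, 95% interval 0.86 to 2.43; unadjusted p = 0.000564, adjusted p = 0.427, limma), with an exact two-sided permutation p of 0.0238. Of the 31-base stretches of *Cbr2*, 15% also occur in another gene, most often in *Gm11771*, and what that did to its estimated counts was not tested.

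*Aldh1a1*, a retinaldehyde dehydrogenase, had normalized counts of 236, 537, 285, 299 and 508 in Het and of 531, 1761, 392 and 362 in Null. Its log2 difference was 0.77 (SE 0.43, unadjusted p = 0.0975, limma), and 5.7% of its 31-base stretches are shared, mostly with *Aldh1a7*. *Cyp2f2*, the cytochrome P450 that defines club cells in mice, gave 1495, 770, 1791, 1879 and 1634 in Het and 917, 3375, 2327 and 1509 in Null. *Gsto1*, a glutathione transferase of the omega class, gave 281, 366, 356, 505 and 402 in Het and 306, 832, 459 and 228 in Null. The groups overlapped for all 3 genes, and the log2 differences were 0.33 (SE 0.37, unadjusted p = 0.387, limma) for *Cyp2f2* and 0.11 (SE 0.34, unadjusted p = 0.755, limma) for *Gsto1*. *Cyp2f2* thus stood at a mean of 1514 ± 441 (SD, n = 5) in Het and of 2032 ± 1065 (SD, n = 4) in Null, while *Scgb1a1* was 9.52 times as high in the Null mean as in the Het mean.

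Null replicate 2 was the highest of the 9 libraries for all 10 genes. Its value stood above the mean of the other three Null libraries by 34.1 times for *Bpifa1*, 23.4 times for *Scgb3a1* and 10.4 times for *Bpifb1*. The ratio was 7.16 for *Scgb3a2*, 6.39 for *Muc5b*, 4.39 for *Scgb1a1* and 4.11 for *Aldh1a1*, and between 2.13 and 2.51 for *Cyp2f2*, *Cbr2* and *Gsto1*. Without this library, 5 genes were higher in Null at an unadjusted p under 0.05 (3.34% of all genes tested were), 8 of the 10 fold changes were above 0 and their median was 1.18. The 3 secretoglobins then still had all Null libraries above all Het libraries, where 2.16% of all genes did.

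The log2 difference without Null replicate 2 was 2.62 for *Scgb1a1* (unadjusted p = 5.71e-05, limma), 3.75 for *Scgb3a2* (unadjusted p = 0.00103, limma) and 3.32 for *Scgb3a1* (unadjusted p = 0.0138, limma). It was 2.54 for *Bpifb1* (unadjusted p = 0.00738, limma) and 1.32 for *Cbr2* (unadjusted p = 0.00175, limma). *Muc5b* came to 1.03 and no longer passed (unadjusted p = 0.073, limma). *Aldh1a1* came to 0.26, *Cyp2f2* to 0.03, *Gsto1* to -0.24 and *Bpifa1* to -0.36. With 3 and 5 libraries the smallest exact two-sided permutation p is 0.0179, which *Scgb1a1* and *Scgb3a2* reached, while *Scgb3a1* gave an exact p of 0.0714.

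**Figure D2:**
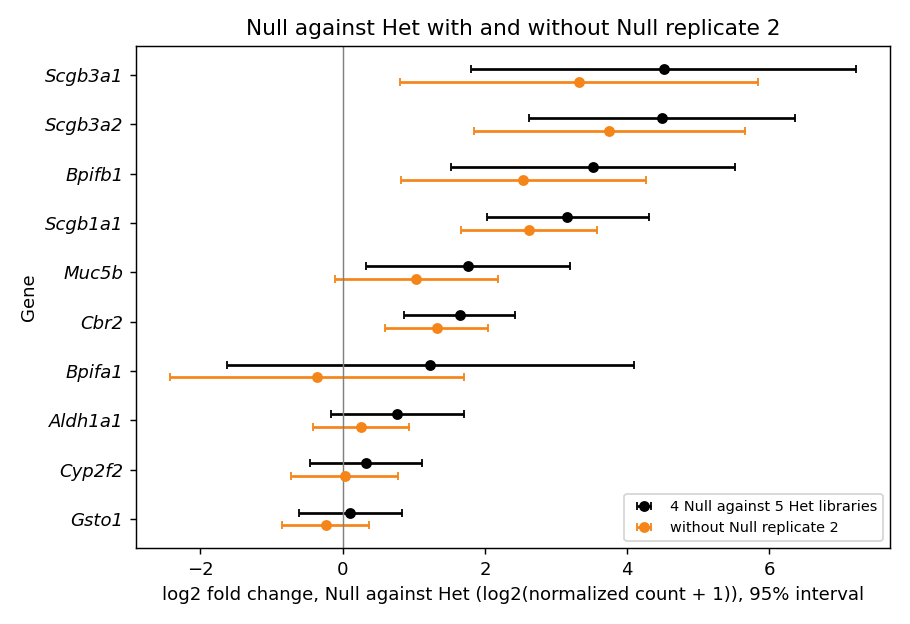
The log2 fold change of each gene (y axis) in PGC1α Null against Het, on the log2(normalized count + 1) scale (x axis), with its 95% interval from limma, with all 9 libraries and without Null replicate 2. The intervals of *Scgb1a1*, *Scgb3a1*, *Scgb3a2*, *Bpifb1* and *Cbr2* stay above 0 both ways, and *Bpifa1* and *Gsto1* pass to the other side of 0 without that library.

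Summed over the 10 genes, the normalized counts were 2716, 2564, 3653, 3581 and 4380 in Het replicates 1 to 5 and 6548, 28194, 6323 and 7097 in Null replicates 1 to 4. The Null libraries were all above the Het libraries, and Null replicate 2 held several times the sum of any other. The mean was 3378 in Het and 12041 in Null, a ratio of 3.56. *Scgb1a1* made up 54.6% of the difference of 8662, *Cbr2* 9.06%, *Bpifa1* 7.82%, *Muc5b* 6.56% and *Cyp2f2* 5.98%. The share of *Scgb3a1* was 5.01%, that of *Aldh1a1* 4.48% and that of *Bpifb1* 3.74%, with 1.84% for *Scgb3a2* and 0.859% for *Gsto1*.

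Without Null replicate 2 the mean of the Null sums was 6656, a ratio of 1.97 to Het. *Scgb1a1* then made up 70.4% of the difference and *Cbr2* 15.3%, and no other gene more than 4.93% (*Muc5b*). The share of *Bpifa1* dropped from 7.82% to 0.804%. In counts the difference was therefore carried by *Scgb1a1* with *Cbr2* next, whether or not that library was used. In ratios of the Null mean to the Het mean the order was another: 41.9 for *Scgb3a1*, 32.9 for *Scgb3a2* and 26.7 for *Bpifb1*. Their Het means were low, at 10.6, 4.99 and 12.6, with 2, 1 and 0 of the 5 Het libraries at 0. Without Null replicate 2 these ratios were 6.36, 13 and 7.95, beside 5.15 for *Scgb1a1* and 2.51 for *Cbr2*.

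*Scgb3a2* was the gene most like *Scgb1a1* across the 9 libraries of the PGC1α table, with a Pearson r of 0.977 and a Spearman rho of 0.983 on log2 values. Without the 2 libraries farthest from the median of *Scgb1a1* (Null replicate 2 and Het replicate 1) r was 0.966. These are descriptions, as the 9 libraries fall into 2 genotypes and share one normalization. The genes next in likeness were *Aqp1* (r 0.937), *Ackr3* (r 0.927), *Tmtc1* (r 0.924) and *Kitl* (r 0.923), none of them among the 10. *Cbr2* came 9th with r 0.91, and the r of *Scgb3a1* fell from 0.723 to 0.278 without the same 2 libraries. Across the 14 libraries of the PI3Kα table *Scgb3a2* had r 0.711 and rank 95. The likest genes there were *Hook3* (r 0.929), *Tmem176a* (r 0.906), *Gm16486* and *AC162446.5* (both r 0.864) and *Nckap5* (r 0.861). Without the 2 libraries of that table farthest from its *Scgb1a1* median, r was 0.843 for *Hook3*, 0.6 for *Tmem176a* and 0.802 for *Nckap5*. It was then 0.569 for both *Gm16486* and *AC162446.5* and 0.643 for *Scgb3a2*.

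**Figure D3:**
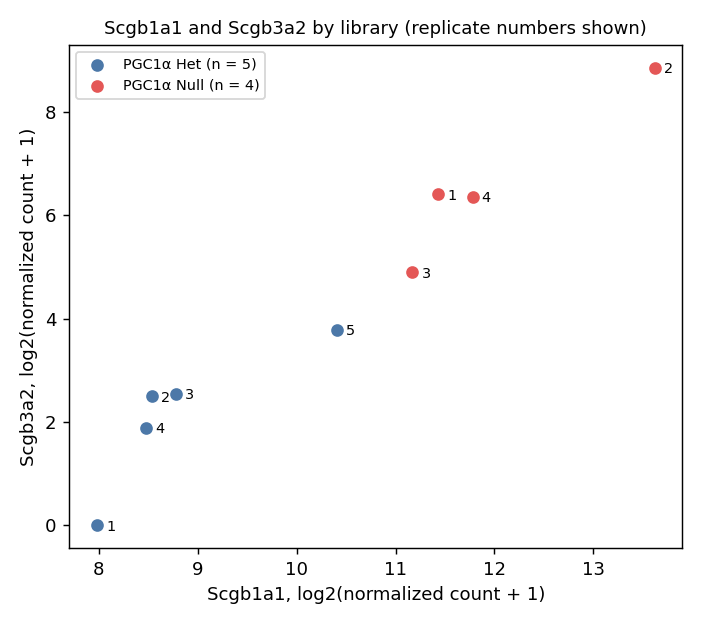
log2(normalized count + 1) of *Scgb1a1* (x axis) against *Scgb3a2* (y axis) in the 5 PGC1α Het and 4 PGC1α Null libraries, each point labelled with its replicate number. The points lie along one line (r 0.977), with the 4 Null libraries above and to the right of the 5 Het libraries.

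Markers of other cell types also differed between the Null and Het libraries. The 12 endothelial markers summed to between 631 and 1049 in the Het libraries and to between 1705 and 2413 in the Null libraries. No endothelial marker was at 0 in a Null library, and 11 of the 12 were higher at an unadjusted p under 0.05, with a median log2 difference of 1.88. Of these 11, 2 averaged under 10 in Het and passed the filter through their Null values. *Pecam1*, an adhesion molecule of endothelial cells, averaged 147 ± 39.5 (SD, n = 5) in Het and 323 ± 65.1 (SD, n = 4) in Null. Without Null replicate 2, 11 of 12 still passed, with a median of 2.12, and among the Null libraries replicate 2 had neither the highest nor the lowest endothelial sum.

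The 11 macrophage markers summed to between 550 and 3906 in Het and to between 1730 and 12109 in Null, with 5 of 11 higher. Null replicate 2, the library with the highest club cell values, had the lowest macrophage sum of the Null group, 1730. It had the highest fibroblast sum, 2339, where the other Null libraries held between 570 and 750 and the Het libraries between 145 and 590. Of 9 fibroblast markers tested 6 were higher, and 2 without Null replicate 2. Of the AT2 markers 0 of 20 passed in either direction, with a median of -0.19. The part of these other cell types in the club cell values was not tested. In bulk libraries a change in the number of cells of a type and a change in RNA per cell cannot be told apart.

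**Figure D4:**
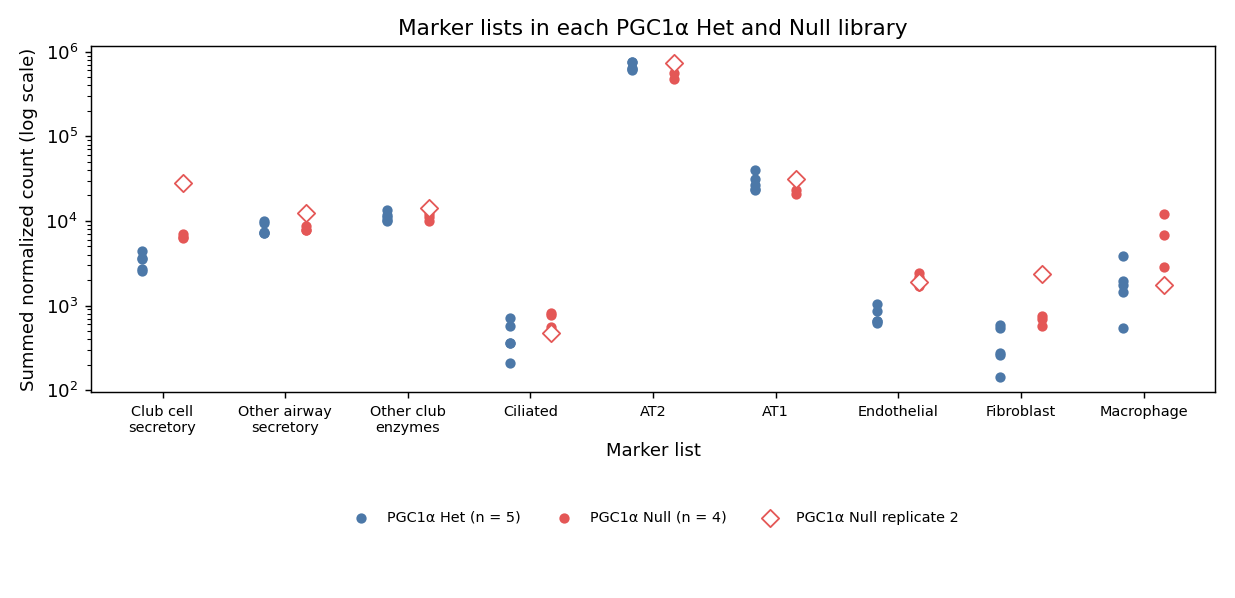
Summed normalized count of each marker list (x axis) in each PGC1α Het and Null library on a log y axis, with an open diamond for Null replicate 2. The endothelial sums (631 to 1049 in Het, 1705 to 2413 in Null) and the sums of the 10 club cell genes (2564 to 4380 in Het, 6323 to 28194 in Null) do not overlap between groups, whereas the AT2 sums do.

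The lists of other airway secretory and detoxifying genes had median log2 differences (0.68 and 0.13) below that of the 10 (1.7). Single genes of these lists lay above it. The 10 and these lists were chosen with earlier results of these data known. Of 28 further airway secretory genes 20 could be tested, and 4 were higher and 0 lower at an unadjusted p under 0.05, with a median log2 difference of 0.68. Without Null replicate 2, 3 were higher and 1 lower (*Nupr1*, a stress response gene), and the median was 0.23. Their sums overlapped, from 7143 to 9951 in Het and from 7798 to 12382 in Null. The 3 with the largest difference were *Reg3g*, an antibacterial lectin (3.17), *Cckar*, the cholecystokinin receptor (2.14), and *Gabrp*, a GABA receptor subunit (2.0). *Gabrp* came to 1.13 without Null replicate 2 and no longer passed (unadjusted p = 0.158, limma). *Reg3g* had normalized counts of 1.55, 7.26, 6.01, 1.42 and 5.23 in Het and of 43.1, 245, 39.0 and 6.18 in Null, so that Null replicate 2 was again the highest and Null replicate 4 lay within the Het range. Its Het mean was 4.29, so it passed the filter of 10 through its Null values. *Cckar* was 19.9, 8.3, 6.47, 21.0 and 21.3 in Het and 35.3, 61.2, 43.5 and 180 in Null, with no overlap and with Null replicate 4 the highest.

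Of 28 further enzymes of club cells 27 could be tested, 6 were higher and 0 lower, and the median log2 difference was 0.13. Without Null replicate 2, 3 were higher and the median was 0.06. *Cyp2a5*, a cytochrome P450, differed by 2.35 (unadjusted p = 0.0342, limma) and *Cyp4a12b* by 1.48 (unadjusted p = 0.27, limma). *Cyp2a5* had normalized counts of 5.8, 13.6, 10.4, 0 and 26.1 in Het and of 53.6, 173, 8.95 and 26.7 in Null, and Null replicate 3 fell within the Het range. It came to 1.65 without Null replicate 2 and no longer passed (unadjusted p = 0.136, limma). The 11 other BPI-fold genes were too low to test, with sums of at most 58 per library. Of 19 tested regulators of airway epithelium 1 was higher and 1 lower: *Hey1*, a target of Notch signaling (2.57, unadjusted p = 0.00394, limma), and *Notch1* (-0.74, unadjusted p = 0.00128, limma). *Hey1* had normalized counts of 8.26, 1.37, 3.6, 2.1 and 9.84 in Het and of 16.1, 84.9, 23.8 and 22 in Null, without overlap, and with a Het mean of 5.04 it too passed the filter through its Null values. *Notch1* had normalized counts of 828, 971, 870, 864 and 767 in Het and of 585, 510, 485 and 477 in Null, with no overlap. *Jag2*, a Notch ligand, differed by 0.64 (unadjusted p = 0.165, limma).

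Of 11 ciliated cell markers tested 1 passed, *Foxj1*, the regulator of motile cilia, which had normalized counts of 0, 5.23, 1.83, 4.43 and 24.5 in Het and of 34.2, 25.3, 15.2 and 36.9 in Null. Its log2 difference was 2.53 (unadjusted p = 0.0125, adjusted p = 0.998, limma), and Het replicate 5, which had the highest *Scgb1a1* of its group, was the only Het library within the Null range. *Foxj1* averaged 7.19 in Het, under the filter of 10, and so was tested through its Null values. *Rsph1* and *Dnah5*, parts of the ciliary axoneme, differed by 2.1 (unadjusted p = 0.0628, limma) and 1.24 (unadjusted p = 0.0515, limma), and without Null replicate 2 *Dnah5* passed as well (1.57, unadjusted p = 0.0233, limma). None of these genes passed after adjustment.

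Compared per kilobase of annotated exon, *Scgb1a1* was the most abundant of the 10 genes in all 4 PGC1α Null libraries, with a median of 6600 normalized counts per kilobase (range 4840 to 26400) beside 947 (453 to 1670) for *Cyp2f2* and 750 (387 to 1480) for *Cbr2*. In the 5 Het libraries it did not stand apart from *Cyp2f2*, with medians of 778 (530 to 2860) and 807 (380 to 928), and *Cyp2f2* was the higher in Het replicates 1 and 4. *Cbr2* followed there at 210, *Gsto1* at 181 and *Aldh1a1* at 60.6. In the PI3Kα table *Scgb1a1* was the most abundant of the 10 in every library of 6 and 12 weeks, with group medians between 4030 and 11800 per kilobase. At 2 weeks *Aldh1a1* exceeded it in the BRAF V600E library (2760 against 2690) and in replicate 1 of BRAF V600E/PI3Kα H1047R (5370 against 3390). The ranges of *Cyp2f2*, *Aldh1a1* and *Cbr2* over the 14 libraries overlapped, from 73.9 to 2010, from 74.7 to 6980 and from 315 to 11000 per kilobase. The tables were normalized separately, so no level was tested between them.

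In the PI3Kα table, *Muc5b* and *Cyp2f2* were lower in BRAF V600E/PI3Kα H1047R than in BRAF V600E cells over all weeks by the unadjusted test, and no difference was detected in *Scgb1a1*. *Muc5b* had a lowest, median and highest normalized count of 404, 484 and 1035 in the 6 BRAF V600E libraries and of 15.7, 155 and 897 in the 8 BRAF V600E/PI3Kα H1047R libraries. Its log2 difference was -2.07 (SE 0.67, 95% interval -3.5 to -0.64; unadjusted p = 0.00734, adjusted p = 0.511, limma), and the exact two-sided permutation p was 0.0117, or 0.0127 with labels exchanged within weeks. *Cyp2f2* had 2023, 2686 and 4075 in BRAF V600E and 150, 1695 and 3542 in BRAF V600E/PI3Kα H1047R. Its log2 difference was -1.24 (SE 0.54; unadjusted p = 0.0367, adjusted p = 0.695, limma), with exact two-sided permutation p values of 0.0456 and, within weeks, 0.0238. The groups overlapped for both genes, and no BRAF V600E library lay below 404 for *Muc5b* or 2023 for *Cyp2f2*.

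*Bpifb1* went the other way, with 4.16, 14.1 and 34.4 in BRAF V600E and 9.51, 30.5 and 561 in BRAF V600E/PI3Kα H1047R (log2 difference 1.61, SE 0.75; unadjusted p = 0.0488, adjusted p = 0.728, limma; exact two-sided permutation p = 0.0639). This unadjusted p rose above 0.05 with a pseudocount of 4 (0.0536), a filter of 40 (0.0553), no filter (0.0524) and the replicate block (0.105), and without 8 of the 14 libraries left out singly, with limma p values from 0.0196 to 0.115. For *Cyp2f2* it rose above 0.05 without 6 of the 14, namely each BRAF V600E library of 6 weeks, replicate 2 of BRAF V600E at 12 weeks, and in BRAF V600E/PI3Kα H1047R replicate 2 of 2 weeks and replicate 1 of 12 weeks. *Muc5b* stayed under 0.05 without any 1 of the 14 (limma p from 0.000715 to 0.0193). Without both 12 week BRAF V600E/PI3Kα H1047R libraries *Bpifb1* came to 1.84 (unadjusted p = 0.0345, limma) and *Bpifa1* to 2.82 (unadjusted p = 0.117, limma). *Scgb1a1* had 1280, 3535 and 9846 in BRAF V600E and 345, 5397 and 6534 in BRAF V600E/PI3Kα H1047R, a log2 difference of -0.16 (SE 0.62, 95% interval -1.47 to 1.15). For the other six genes the log2 differences lay between -0.08 (*Cbr2*) and 2.18 (*Bpifa1*, SE 1.66), none past an unadjusted p of 0.05. Of all genes tested 4 of 17558 passed an adjusted p of 0.05 (0.0228%), none of them among the 10, and 3.46% were higher and 3.38% lower at an unadjusted p under 0.05. The sexes were unevenly spread, with 5 females and 1 male in BRAF V600E and 3 and 5 in BRAF V600E/PI3Kα H1047R by the labels. With labelled sex as a factor *Muc5b* came to -1.34 (unadjusted p = 0.0624, limma) and *Cyp2f2* to -0.78 (unadjusted p = 0.198, limma). *Bpifb1* came to 2.12 (unadjusted p = 0.0223, limma) in that fit. *Kdm5d* went against the label in both 12 week BRAF V600E/PI3Kα H1047R libraries, so the factor may hold the wrong sex for them.

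By week, the difference in *Muc5b* and *Cyp2f2* was largest at 2 weeks, though the change of the difference from 2 to later weeks was not tested. By the labels the lone BRAF V600E library of that week came from a female and the BRAF V600E/PI3Kα H1047R pair from males, so that sex and genotype cannot be told apart at 2 weeks. *Muc5b* had a normalized count of 782 in the single BRAF V600E library of 2 weeks and of 15.7 and 37.7 in BRAF V600E/PI3Kα H1047R. At 6 weeks it had 404, 427 and 464 in BRAF V600E and 132, 897, 161 and 148 in BRAF V600E/PI3Kα H1047R, and at 12 weeks 1035 and 504 against 173 and 332. Both genotypes therefore overlapped at 6 weeks, where BRAF V600E/PI3Kα H1047R replicate 2 was the highest of 7 libraries, and were apart at 2 and 12 weeks, where 35.1% and 13.8% of all genes were likewise apart and lower. At 12 weeks the log2 difference of *Muc5b* was -1.12 without replicate 1 and -2.06 without replicate 2 of the pair that went against its labelled sex. The log2 difference at 2 weeks was -4.94 (SE 0.99; unadjusted p = 0.000302, adjusted p = 0.0855, limma), with the lone BRAF V600E library assumed to vary like the other groups.

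*Cyp2f2* was apart between genotypes at 2 weeks and overlapped at 6 and 12 weeks, with 2136 against 150 and 675 at 2 weeks, 4075, 2588 and 4032 against 1771, 3542, 1759 and 1630 at 6 weeks, and 2023 and 2785 against 880 and 2584 at 12 weeks. Its log2 difference at 2 weeks was -2.74. As for *Muc5b*, tests between genotypes at 2 weeks take the spread of the lone BRAF V600E library from the other groups. At an unadjusted p under 0.05, 2 of the 10 genes were lower and 0 higher at 2 weeks, where 6.57% of all genes were lower and 6.93% higher, and 3 genes of the table passed after adjustment (0.0171%). At 6 and 12 weeks none of the 10 passed even unadjusted, with 4.24% and 3.76% of all genes passing, and 4 (0.0228%) and 2 (0.0114%) genes of the table passed after adjustment. The exact two-sided permutation test at 6 weeks cannot go below 0.0286, and the lowest p among the 10 was 0.0857. None of the 10 differed between 6 and 12 weeks in its genotype effect at an unadjusted p under 0.05, where 2.87% of all genes did and 0 genes passed after adjustment (0%). When single libraries were left out, up to 2 of the 10 passed unadjusted at 6 weeks. Without replicate 2 of BRAF V600E at 6 weeks 2 were higher (2.71% of all genes were), and without replicate 2 of BRAF V600E/PI3Kα H1047R 1 was higher and 1 lower (1.91% and 2.06% of all genes). In the change of the effect up to 2 passed, both lower, without replicate 3 of BRAF V600E at 6 weeks (1.37% of all genes were lower).

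**Figure D5:**
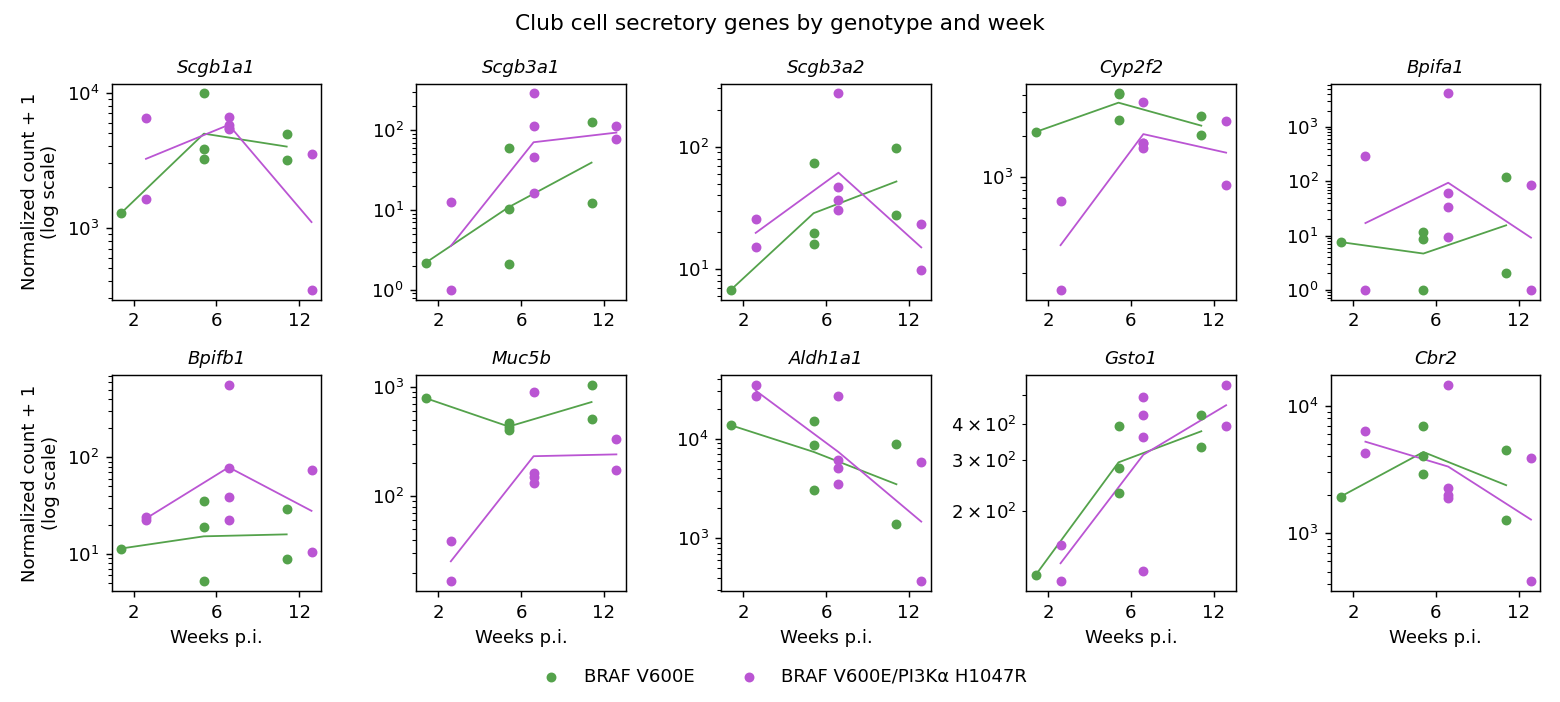
Normalized count + 1 (log y axis) of each gene in the BRAF V600E and BRAF V600E/PI3Kα H1047R libraries against weeks p.i. (x axis, weeks evenly spaced), 1 panel per gene, with a line through the means of the log2 values of each genotype. *Muc5b* and *Cyp2f2* are lowest in BRAF V600E/PI3Kα H1047R at 2 weeks (15.7 and 37.7, and 150 and 675), and the points of *Bpifa1* spread from 0 to 4141.

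Within BRAF V600E/PI3Kα H1047R cells, 4 of the 10 genes were higher at 6 than at 2 weeks at an unadjusted p under 0.05 and none lower, where 7.72% of all genes were higher and 5.64% lower. *Muc5b* was higher by 3.19 on the log2 scale (SE 0.7; unadjusted p = 0.000642, adjusted p = 0.0932, limma) and *Cyp2f2* by 2.69 (SE 0.57; unadjusted p = 0.000501, adjusted p = 0.0898, limma). *Scgb3a1*, with 0 and 11.6 at 2 weeks and 289, 113, 15.6 and 45.1 at 6 weeks, was higher by 4.32 (SE 1.52; unadjusted p = 0.0146, adjusted p = 0.276, limma). *Gsto1*, with 114 and 152 against 124, 360, 428 and 493, was higher by 1.24 (SE 0.5; unadjusted p = 0.0297, adjusted p = 0.328, limma). Only 28 genes of the table passed after adjustment (0.159%), none of the 10 among them. Without BRAF V600E/PI3Kα H1047R replicate 1 of 6 weeks 698 of 17564 genes passed. Among them were *Muc5b* (3.46, adjusted p = 0.0244, limma), *Cyp2f2* (2.76, adjusted p = 0.0338, limma) and *Gsto1* (1.68, adjusted p = 0.0232, limma). Between genotypes at 2 weeks, with a lone BRAF V600E library, the log2 difference of *Muc5b* was -4.94 in that fit. Without replicate 2 of 2 weeks 172 genes passed, among them *Cyp2f2* (3.77, adjusted p = 0.0153, limma), and without replicate 1 of 2 weeks 1 gene passed and 2 of the 10 were higher unadjusted (4.85% of all genes were). In both of these fits a single 2 week library was left and was assumed to vary like the other groups.

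The BRAF V600E/PI3Kα H1047R pair of 2 weeks also stood apart in other cell type markers. Their 20 AT2 markers summed to 197785 and 96407, against 894934 in the BRAF V600E library of 2 weeks and between 354120 and 973301 at 6 weeks, and 16 of 20 were lower at 2 weeks at an unadjusted p under 0.05 (median log2 difference -2.27). Their 12 endothelial markers summed to 63686 and 65114, against 8404, and 10 of 12 were higher (median 2.73). The part of these shifts in the *Muc5b* and *Cyp2f2* values was not tested. *Aldh1a1* was at its highest there, with normalized counts of 26527 and 34477 against 13603 in BRAF V600E at 2 weeks, and a log2 difference of 1.15 (SE 1.55, unadjusted p = 0.472, limma).

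Replicate 1 of BRAF V600E/PI3Kα H1047R at 6 weeks had the highest value of its group for 7 of the 10 genes. It held 6534 for *Scgb1a1*, 289 for *Scgb3a1*, 272 for *Scgb3a2*, 4141 for *Bpifa1*, 561 for *Bpifb1*, 26450 for *Aldh1a1* and 14575 for *Cbr2*. The other three libraries held between 29.3 and 46.1 for *Scgb3a2*, between 8.4 and 58.7 for *Bpifa1* and between 21.4 and 76.7 for *Bpifb1*. It also had the highest endothelial sum of the table, 91447, and the lowest AT2 sum of its group, 354120. For *Gsto1* and *Muc5b* it was the lowest of its group, at 124 and 132.

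The *Scgb1a1* value was lower at 12 than at 6 weeks in BRAF V600E/PI3Kα H1047R cells, with 345 and 3488 against 6534, 5798, 5348 and 5446. The groups did not overlap, and 5.85% of all genes were likewise apart and lower. The log2 difference was -2.39 (SE 0.78; unadjusted p = 0.00936, adjusted p = 1, limma), with 2.54% of all genes lower at an unadjusted p under 0.05 and 2 genes past adjustment (0.0114%). It came to -0.72 (unadjusted p = 0.315, limma) without replicate 1 of 12 weeks and to -4.06 (unadjusted p = 9.59e-05, limma) without replicate 2, each p taking the spread of the single library left from the other groups. The value was thus set by the pair of libraries that went against their labelled sex. None of the 10 genes passed an unadjusted p of 0.05 within BRAF V600E cells, neither at 6 against 2 weeks (7.28% of all genes) nor at 12 against 6 weeks (3.85%), and no gene of the table passed after adjustment (0% in both). *Scgb1a1* in BRAF V600E was at 1280 at 2 weeks, at 3847, 3223 and 9846 at 6 weeks and at 4963 and 3191 at 12 weeks.

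*Scgb3a2*, like *Scgb1a1*, was lowest at 2 weeks in BRAF V600E cells, with 5.75 at 2 weeks, 18.8, 15 and 72.9 at 6 weeks and 96.6 and 26.7 at 12 weeks. In BRAF V600E/PI3Kα H1047R cells it had 14.1 and 24.8 at 2 weeks, 272, 46.1, 35.4 and 29.3 at 6 weeks and 8.72 and 22.2 at 12 weeks. *Cbr2* had normalized counts of 1935 at 2 weeks, 2903, 4062 and 6912 at 6 weeks and 4467 and 1268 at 12 weeks in BRAF V600E. In BRAF V600E/PI3Kα H1047R it had 6367 and 4290, then 14575, 2243, 1897 and 1984, then 418 and 3901. The genotypes overlapped at 6 and 12 weeks for *Cbr2* and at 6 weeks for *Scgb3a2*, which at 12 weeks was apart and lower, as were 13.8% of all genes with 2 libraries a group. The 12 week log2 differences were -1.79 (SE 1.12) for *Scgb3a2* and -0.9 (SE 1.09) for *Cbr2*. Both rest on the pair that went against its labelled sex: without its replicate 1 they came to -1.16 and 0.71, and without its replicate 2 to -2.42 and -2.51. The median over the 10 genes turned from -0.83 to 0.42 without replicate 1 and came to -2.24 without replicate 2, when *Scgb1a1*, *Aldh1a1* and *Cbr2* were lower at an unadjusted p under 0.05 (3.41% of all genes were), again with the spread of the single library left taken from the other groups.

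Set side by side at 12 weeks as normalized counts scaled to a sum of 1000000 per library, without a test since the tables were normalized separately, *Scgb1a1* ranged from 162 to 274 in BRAF V600E, from 20.2 to 190 in BRAF V600E/PI3Kα H1047R, from 29.8 to 177 in PGC1α Het and from 301 to 1590 in PGC1α Null. *Cyp2f2* ranged from 112 to 141, from 51.7 to 141, from 108 to 242 and from 100 to 427 in the same groups. *Scgb3a2* ranged from 1.36 to 5.34, from 0.513 to 1.21, from 0 to 1.65 and from 3.94 to 58.6. *Aldh1a1* ranged from 69.6 to 487, from 21.7 to 318, from 27.9 to 75.5 and from 42.5 to 223.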

How the data were processed

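RNA of 23 libraries of sorted tdTomato+ mouse lung tumor cells was measured by single-end sequencing of Nugen Ovation Ultralow libraries on an Illumina HiSeq. Salmon estimates of transcript abundance were turned by the authors into DESeq2-normalized gene values, both in Galaxy with default settings, on GRCm38 per the submitters' processing notes, which also name FastQC; versions are not given in the sources used here. The deposited values are a signal, gene counts divided by size factors, in 2 tables that were normalized separately. Only between 5.36% and 12.1% of low values in a library were whole multiples of its commonest step, so reads could not be recovered and depth is not known. The deposited comparison tables hold the authors' fold changes and p-values and were not used.

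Groups came from the genotype and week in the labels. The study counts separate animals as biological replicates, and its Het and Null mice were littermates, but the labels tie no library to an animal or litter, so p-values measure the spread between these samples. The 10 genes, the marker lists and the rule for further named genes (in each airway list the 3 genes with the largest difference between Null and Het) were chosen with earlier results of these data known. One gene that the rule names is not reported here. Values were taken as log2(normalized count + 1) for genes averaging at least 10 (17424 genes in the PGC1α table, 17558 in the PI3Kα table). They were fitted with limma 3.58.1 (trend, R 4.3.3) on genotype alone, as the study did, or with 1 mean per genotype and week, with Benjamini-Hochberg adjustment over all genes tested and a threshold of 0.05. Exact two-sided permutation tests compared single genes. The fits were tested on simulated data. Alternatives were a pseudocount of 4, a filter of 40 or none, quantile normalization, sex, week or replicate number as factors, and leaving out each library. Promoters came from RefSeq, and 31-base stretches shared between genes and exon lengths from the GENCODE annotation of GRCm38.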

Additional observations from a re-analysis of the deposited data

Results flagged for a closer look

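In 14 of the 30 groups of 4 or 5 libraries examined for the 10 genes, 1 library passed a test for a stray value. The test was Dixon's gap over range at the 95% level, run on normalized counts and not on log2 values. That level assumes normally distributed values, and all 14 flagged values were the highest of their group. How often chance gives such a value here is therefore not known. In PGC1α Null, replicate 2 lay above the others for *Scgb1a1* (12565), *Scgb3a1* (1575), *Scgb3a2* (463), *Bpifa1* (2683), *Bpifb1* (1045) and *Aldh1a1* (1761), all as normalized counts. In PGC1α Het, replicate 5 did so for *Scgb1a1* (1363). In BRAF V600E/PI3Kα H1047R at 6 weeks, replicate 1 did so for *Scgb3a2* (272), *Bpifa1* (4141), *Bpifb1* (561), *Aldh1a1* (26450) and *Cbr2* (14575), and replicate 2 for *Cyp2f2* (3542) and *Muc5b* (897). The genes were measured in the same libraries, so these values are not independent of each other. Why these libraries stood apart was not tested.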

How the results depend on the processing

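In PGC1α Null against Het no gene of the table passed an adjusted p of 0.05 with limma under any of the alternatives, and between 5 and 7 of the 10 genes were higher at an unadjusted p under 0.05 (5 without Null replicate 2 or Het replicate 5), with between 2.06% and 3.34% of all genes higher in these fits. Leaving out single libraries moved the log2 difference from 2.62 to 3.56 for *Scgb1a1*, from -0.36 to 2.43 for *Bpifa1* and from -0.24 to 0.38 for *Gsto1*, the reversals of the last 2 being without Null replicate 2. The number of the 10 genes with all Null above all Het libraries went from 3 to 5 (5 without Null replicate 3, where 1.72% of all genes did). The number past 0.05 by exact permutation went from 3 to 6 (3 without Het replicate 1, 4 or 5). No share of all genes is available for the exact test, so its counts cannot be set against the table.

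In PI3Kα H1047R against BRAF V600E over all weeks, leaving out single libraries moved the log2 difference from -0.3 to 0.74 for *Aldh1a1*. It moved from -0.41 to 0.32 for *Cbr2* and from -0.22 to 0.2 for *Gsto1*. It moved from -0.46 to 0.31 for *Scgb1a1* and from -0.19 to 0.61 for *Scgb3a2*. The number of the 10 genes past 0.05 by exact permutation went from 1 to 2, again with no share of all genes to set beside it. Without both 12 week BRAF V600E/PI3Kα H1047R libraries, *Scgb1a1* came to 0.37, *Gsto1* to -0.23 and *Cbr2* to 0.32, with *Muc5b* at -2.35 and *Cyp2f2* at -1.35. *Cbr2* came to 0.12 with labelled sex as a factor, and *Aldh1a1* to -0.14 with week as a factor. When single libraries were left out, from 0 to 3 of the 10 genes passed an adjusted p of 0.05 for BRAF V600E/PI3Kα H1047R at 6 against 2 weeks. The 3 passed in a fit where 698 of 17564 genes did. Calls between genotypes at 2 weeks rest on a lone BRAF V600E library and are not counted here.

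Over the whole table the genes called went from 18 to 32 at 6 against 2 weeks (from 1, without replicate 1 of 2 weeks, to 698, without replicate 1 of 6 weeks, when libraries were left out), from 0 to 107 between genotypes at 2 weeks (0 to 268), from 1 to 7 at 6 weeks (1 to 12) and from 0 to 16 at 12 weeks (2 to 4). They went from 0 to 92 for BRAF V600E at 6 against 2 weeks, from 0 to 3 at 12 against 6 weeks and from 2 to 16 for BRAF V600E/PI3Kα H1047R at 12 against 6 weeks (2 to 25). The cause was not tested.

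Replicate numbers did not pair the samples: correlations of same-numbered deviations ran from -0.467 to 0.211 in the PGC1α table. With the replicate number as a block 0 genes of the table passed in Null against Het and 7 of the 10 were higher unadjusted (2.63% of all genes were), and over all weeks 6 genes of the table and 0 of the 10 passed, with *Aldh1a1* at -0.08. In the 12 week samples alone 0 genes passed with the block as labelled or crossed, and 3 of the 10 were lower unadjusted with the crossed block (2.18% of all genes were) and none as labelled, an alternative chosen after seeing the data, as were the lists without Null replicate 2 and the weeks without single libraries. Depth is not known, and the precision is limited by groups of 1 to 5 libraries and by values near 0.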
